A study of Mus musculus with 12 samples.

Results

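Cyp2d9, Cyp2d10, Cyp2d22, Cyp2d26, Cyp2d40, Cyp2j5, Cyp2j6 and Cyp2f2 are cytochrome P450 genes that the liver transcribes without an inducing drug, and they are the subject here. These 8 genes were chosen by name, with earlier results of these data known, and each has a row in the gene tables, out of 24062 genes. All 8 were measured in liver RNA-seq libraries from 12 female C57BL/6J mice, which arrived at 6 weeks of age and were given 2 weeks to acclimate. Both diets were compared with 6 mice each: a control diet, and a matched diet dosed with BIBB-515 at 55 mg/kg body weight for 10 days. BIBB-515 inhibits lanosterol synthase (Lss), the enzyme that closes the sterol ring in cholesterol synthesis. All 12 mice ate the control diet for 3 days first, and the libraries are those of 6 of the 11 mice randomized to each diet. Control mice are numbered 1 to 6 and BIBB-515 mice 6 to 11, as in the labels, and a shared number does not mark a pair.

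Cytochrome P450 enzymes are haem proteins of the endoplasmic reticulum that insert an oxygen atom into steroids, fatty acids, drugs and pollutants, using electrons passed on by P450 oxidoreductase. In mice the Cyp2d genes stand in a tandem cluster on chromosome 15, whose human counterpart holds CYP2D6, a major drug-metabolizing enzyme. Cyp2d9 encodes a testosterone 16 alpha-hydroxylase that is more abundant in male liver. Cyp2j enzymes oxidize arachidonic acid and other polyunsaturated fatty acids to epoxides, which epoxide hydrolases turn into diols. Cyp2f2 activates naphthalene and related aromatics in the airway and is also a gene of periportal hepatocytes, the liver cells nearest the incoming blood. These genes are called constitutive in contrast to Cyp2b, Cyp2c and Cyp3a genes, which the receptors CAR and PXR induce after exposure to many drugs.

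The start regions of the Cyp2d genes show how close the members of this cluster are to each other. For 4 of the 5 Cyp2d members, 80 bases of promoter from RefSeq on GRCm38.p6 are given on the strand of the gene. Capitals mark 1 run shared by 3 of the sequences and 1 run shared by all 4. Some bases in lower case are shared too. The stretches lie at chr15:82452283-82452362 on the plus strand for Cyp2d9, and on the minus strand at chr15:82407212-82407291 for Cyp2d10, chr15:82764200-82764279 for Cyp2d40 and chr15:82794263-82794342 for Cyp2d26.
Cyp2d9: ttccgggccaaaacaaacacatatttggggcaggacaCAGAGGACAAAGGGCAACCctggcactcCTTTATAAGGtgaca
Cyp2d10: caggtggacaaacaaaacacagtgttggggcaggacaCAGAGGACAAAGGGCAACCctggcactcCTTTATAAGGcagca
Cyp2d40: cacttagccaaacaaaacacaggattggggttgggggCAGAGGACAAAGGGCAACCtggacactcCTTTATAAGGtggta
Cyp2d26: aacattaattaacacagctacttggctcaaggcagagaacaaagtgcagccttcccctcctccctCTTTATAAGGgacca
The first run of capitals, CAGAGGACAAAGGGCAACC, is 19 bases long and was found, on either strand, in 3 of 32544 promoters, or 0.00922%, and those are Cyp2d9, Cyp2d10 and Cyp2d40. The second run, CTTTATAAGG, is a TATA-type element of 10 bases that stands in all 4 stretches and in 32 promoters, or 0.0983%. From the gene starts that RefSeq gives, it begins 29 bases before Cyp2d9, 32 before Cyp2d10 and Cyp2d26, and 92 before Cyp2d40. GENCODE M21 sets other starts, from which it begins 31 bases before Cyp2d10 and Cyp2d40 and 17 bases inside Cyp2d26, and the GENCODE gene of Cyp2d9 starts 18911 bases upstream of it. Base by base, the stretches of Cyp2d9 and Cyp2d10 are 82.5% identical, those of Cyp2d10 and Cyp2d40 78.75%, and those of Cyp2d9 and Cyp2d40 75%, whereas Cyp2d26 is 33.75 to 41.25% identical to the other three. As given below, Cyp2d9 rose on BIBB-515, Cyp2d40 fell, and Cyp2d10 did not pass the test. Whether these sequences have a part in the response was not tested. Promoter entries were matched for 7 of the 8 members, all but Cyp2d22. Across the windows of those 7, from 250 bases before to 50 after the start, the half-site AGGTCA repeated after 4 bases (DR4, a type bound by CAR and PXR, in 5 of all promoters, 0.0154%) was not found on either strand. Nor was AGGTCA repeated after 1 base (DR1, in 13 of all promoters, 0.0399%). That says only that these exact letters are not in these windows, and repeats with other letters were not sought. The 19-base run above holds AGGACA and AGGGCA 1 base apart, each 1 letter from AGGTCA.

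Expression was measured as reads per gene, scaled with TMM factors to counts per 1000000 reads (CPM), and the diets were compared with edgeR's quasi-likelihood test, adjusted by the method of Benjamini and Hochberg over the 12481 genes tested (FDR). Libraries held 22764819 to 31058370 counted reads. No pair of libraries of a diet agreed within sampling noise (chi-square per degree of freedom of at least 12.1). All 12 libraries were treated as separate mice, as the labels say. The 20 most abundant genes took 27.7 to 29.8% of the reads in control mice and 23.6 to 25.2% in BIBB-515 mice, so this share moved with the diet, and its part in the results was not tested. Hepatocyte markers (Alb, Apoa1, Ttr, Fgb and Serpina1b, 5 matched of 6) summed to 139671 to 159910.2 CPM in control mice and 107073 to 121265 CPM in BIBB-515 mice, and 3 of the 5 fell (Alb, Ttr and Fgb). Of 19 tested markers of Kupffer cells, endothelium, bile duct, leukocytes and fat, edgeR and limma-voom called 0 and DESeq2 called 1 at an FDR of 0.05, with 1 (Spp1), 1 and 3 at an unadjusted p under 0.05. Among stellate cell markers, 2 of 5 fell (Lrat by 0.81 and Dcn by 0.27 on the log2 scale), where 6.48% of all tested genes were called lower. The lowest p in each of those 5 lists belonged to Marco (-0.73, edgeR FDR = 0.401), Stab2 (-0.16, 0.297), Spp1 (0.44, 0.0664), Ptprc (-0.25, 0.293) and Fabp4 (0.09, 0.735). Bile duct markers summed to 62.6 to 116 CPM in control and 91.9 to 154 CPM in BIBB-515 mice, stellate markers to 304 to 408 and 296 to 374 CPM, Kupffer markers to 272 to 451 and 273 to 476 CPM, endothelial markers to 161 to 217 and 147 to 199 CPM, leukocyte markers to 14.0 to 19.5 and 11.8 to 19.9 CPM, and fat markers to 6.82 to 11.3 and 6.96 to 11.6 CPM. The fat markers Adipoq, Plin1, Cfd and Retn were under 1 CPM in every mouse. Their part in the results was not tested. In bulk liver, fewer cells of a type and less RNA per cell cannot be told apart.

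One library stands apart for several of these genes. Control mouse 2 had the lowest Cyp2d40 and Cyp2j6 and the highest Cyp2d22 of the control mice. In the plot of member values its Cyp2d22 and Cyp2j6 lie within the range of the BIBB-515 mice and its Cyp2d40 just below it. The fold changes of these genes, and some other results that rest on it, are therefore given with and without this mouse.

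Of the 8 members, 4 passed an FDR of 0.05, where 13.7% of all tested genes did (1705 of 12481). Since the members were chosen with earlier results known, this count is only a description. Cyp2f2, Cyp2d9 and Cyp2d22 rose, against a background of 7.18% of genes called higher, and Cyp2d40 fell, against 6.48% called lower. Cyp2d10, Cyp2d26, Cyp2j5 and Cyp2j6 did not pass. All 8 members passed the filter on low counts. The median log2 fold change was 0.07 over the members and -0.01 over all tested genes. Only Cyp2f2 had groups without overlap, as did 7.07% of tested genes (4.35% higher and 2.72% lower on BIBB-515).

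**Figure D1:**
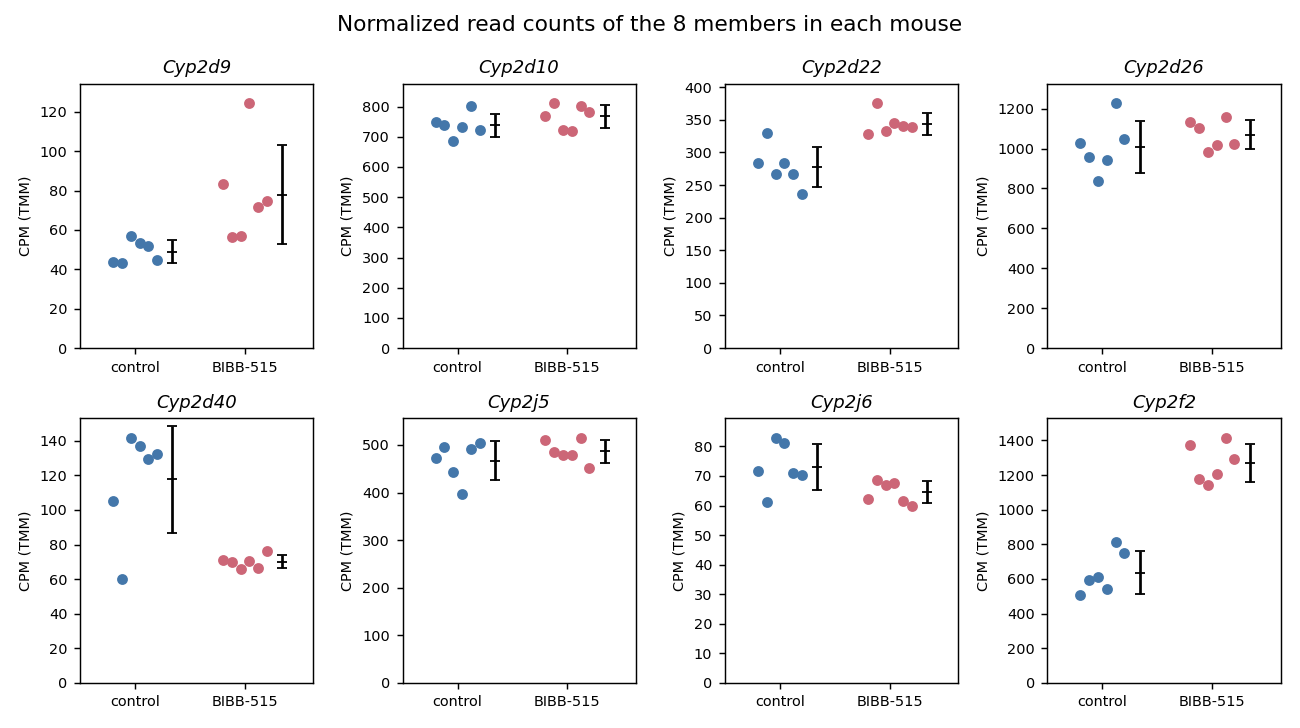
Normalized read counts (CPM, linear axis from 0, a scale of its own for each gene) of the 8 members in each mouse, blue for control and red for BIBB-515, with the mean and SD of 6 mice beside each group in black. Cyp2f2 is the only member whose groups do not overlap, and control mouse 2 is the low control point of Cyp2d40 at 60.2 CPM.

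Cyp2f2 showed the widest difference. Its level ran from 507 CPM (median 602) to 816 CPM in control mice and from 1144 CPM (median 1250.1) to 1414 CPM in BIBB-515 mice. Each of the 6 BIBB-515 mice lay above each control mouse. The means were 637 ± 122 CPM in control and 1268 ± 110.2 CPM in BIBB-515 mice (SD, n = 6 each), a fold change of 1.99 or 0.99 on the log2 scale (SE 0.12, edgeR FDR = 6.76e-05). Among all tested genes the size of this change stood at percentile 98.5. Cyp2f2 lies at chr7:27119955-27133660 on the plus strand of mm10 and is protein-coding. Its 10 exons rose by 0.96 to 1.13 on the log2 scale, and none of the 10 had overlapping groups. GENCODE M21 places an antisense RNA, Gm15883, inside the gene, which shares 9.76% of the 50-base words of Cyp2f2 transcripts, and since counting used no strand, reads of the pair cannot be told apart there.

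Genes beside Cyp2f2 give the local setting. Its lower-coordinate neighbour Cyp2a12, another P450 gene, 83.1 kb away, rose from 578 ± 63.7 to 744 ± 49.9 CPM (SD, n = 6 each), by 0.36 on the log2 scale (SE 0.08, edgeR FDR = 0.00954). On the other side, Cyp2t4 is 20.1 kb away and stayed under 1 CPM in every mouse (0.384 ± 0.148 CPM in control and 0.226 ± 0.0962 CPM in BIBB-515 mice). It was therefore not tested.

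Cyp2d9, the testosterone hydroxylase gene, is the least expressed of the Cyp2d members per kilobase on both diets, and in CPM in control mice. It ran from 43.5 CPM (median 48.4) to 57.0 CPM in control mice and from 56.6 CPM (median 73.1) to 124 CPM in BIBB-515 mice. The groups overlapped by 1 mouse: 5 of 6 BIBB-515 mice were above every control mouse, and BIBB-515 mouse 11 at 56.6 CPM lay just under control mouse 3 at 57.0 CPM. BIBB-515 mouse 7 held the value of 124 CPM, and the next highest was 83.5 CPM. From 49.0 ± 5.77 CPM the mean rose to 78.0 ± 25 CPM (SD, n = 6 each), by 0.67 on the log2 scale (SE 0.16, edgeR FDR = 0.0150). Without BIBB-515 mouse 7 the change was 0.49 (edgeR FDR = 0.0144). The coefficient of variation was 11.8% in control and 32.0% in BIBB-515 mice, the widest of any member on that diet. All 9 exons of Cyp2d9 (chr15:82452377-82456827, plus strand) rose, by 0.65 to 0.74.

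Cyp2d22, at chr15:82370527-82380260 on the minus strand, rose by less. Its level was 237 CPM (median 275) to 329 CPM in control mice and 328 CPM (median 340) to 375 CPM in BIBB-515 mice. Only control mouse 2, at 329 CPM, reached the BIBB-515 range, and the other 5 control mice were below every BIBB-515 mouse. Its mean rose from 278 ± 30.4 to 343 ± 16.7 CPM (SD, n = 6 each), by 0.31 on the log2 scale (SE 0.08, edgeR FDR = 0.0158), and by 0.36 without control mouse 2 (edgeR FDR = 0.00345). Each of its 11 exon rows, of which the first 2 overlap at an alternative first exon, rose by 0.28 to 0.44, and 4 had no overlap between the diets.

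Cyp2d40 was the member that fell. It ran from 60.2 CPM (median 131) to 142 CPM in control mice and from 65.9 CPM (median 70.3) to 76.4 CPM in BIBB-515 mice. The other 5 control mice were above every BIBB-515 mouse, while control mouse 2 was below all of them. The mean was 118 ± 30.8 CPM in control and 70.1 ± 3.79 CPM in BIBB-515 mice (SD, n = 6 each). The difference was -0.75 on the log2 scale (SE 0.16, edgeR FDR = 0.00648), and -0.88 without control mouse 2 (edgeR FDR = 7.25e-06). All 6 exons of its model in the tables (chr15:82759833-82764122, minus strand) were lower, between -0.81 and -0.69.

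The remaining Cyp2d members are the most abundant ones. Cyp2d26 (chr15:82790107-82794245, minus strand) ran from 837 CPM (median 991) to 1227 CPM in control mice and from 981 CPM (median 1063) to 1160 CPM in BIBB-515 mice. Its diets overlapped widely, with a difference of 0.09 on the log2 scale (SE 0.09, edgeR FDR = 0.558). Cyp2d10 (chr15:82402846-82407194, minus strand) ran from 685 CPM (median 735) to 801 CPM in control and from 719 CPM (median 776) to 811 CPM in BIBB-515 mice. This too overlapped, with a difference of 0.06 (SE 0.06, edgeR FDR = 0.602). Their control SD was 131 CPM for Cyp2d26 and 38.0 CPM for Cyp2d10, so the latter varied less between mice, at a coefficient of variation of 5.15% against 13%.

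Both Cyp2j members stayed short of the threshold. Cyp2j5, an epoxygenase abundant in liver and kidney (chr4:96627432-96664119, minus strand), ran from 396 CPM (median 481) to 504 CPM in control and from 451 CPM (median 482) to 515 CPM in BIBB-515 mice. The ranges overlapped over most of their length, and the difference was 0.06 on the log2 scale (SE 0.07, edgeR FDR = 0.630). Cyp2j6 (chr4:96516138-96553651, minus strand) ran from 61.3 CPM (median 71.4) to 82.9 CPM in control and from 59.9 CPM (median 64.6) to 68.7 CPM in BIBB-515 mice. Of its control mice, 5 were above every BIBB-515 mouse and control mouse 2 was within their range. Its difference was -0.18 (SE 0.07, edgeR FDR = 0.118), and -0.22 without control mouse 2, which passed (edgeR FDR = 0.0356). All 9 of its exons were lower, by -0.28 to -0.06.

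**Figure D2:**
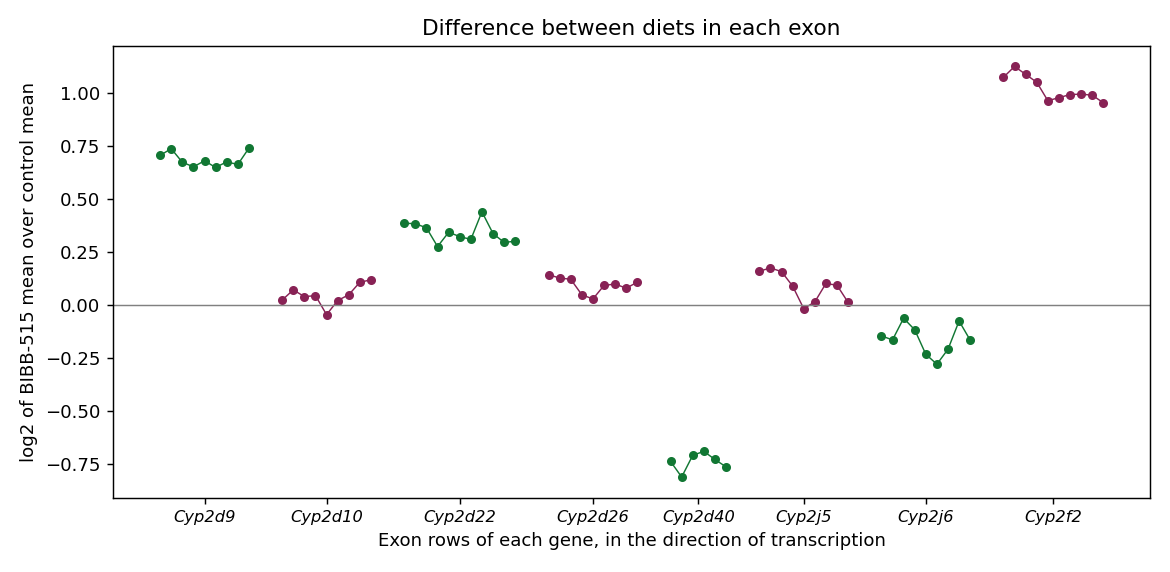
Difference between the diets in each exon row of the 8 members (log2 of the BIBB-515 mean over the control mean, 6 mice each), exons in the order of transcription and joined by lines within a gene. Exons of Cyp2f2 lie between 0.96 and 1.13, those of Cyp2d9 between 0.65 and 0.74, and those of Cyp2d40 between -0.81 and -0.69.

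Exon counts show whether one end of a gene carried its difference. Within each of the 4 genes that passed, every exon row had the sign of the gene. Cyp2d26 was higher in 9 of 9 exons, by 0.03 to 0.14, and Cyp2d10 and Cyp2j5 were each higher in 8 of 9. Sequence shared with other genes bears on these counts. Of the 50-base words of each gene's transcripts in GENCODE M21, 36.7% occur in another gene for Cyp2d10, 29.3% for Cyp2d9, 24.2% for Cyp2d40, 10.5% for Cyp2d26 and 6.03% for Cyp2d22. The deposited gene tables leave out reads that map to several places. The tables of primary alignments held only 0.00428 to 0.0287% more reads for the 5 Cyp2d members, and there the same 4 of the 8 members passed. Words were shared least by Cyp2j5 (0.174%) and Cyp2j6 (0.422%).

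Levels of different genes were compared per kilobase of exon, since longer transcripts give more reads. Coverage along a gene was uneven, which limits such comparisons. In control mice the last exon of Cyp2j5 held 187 CPM over 2215 bases, and its exon 7 held 93.7 CPM over 188 bases. For Cyp2j6 these were 33.7 CPM over 2068 bases and 13.2 CPM over 188 bases. Exon 2 of Cyp2d10 held 21.4 CPM over 172 bases, and its exon 3 held 77.1 CPM over 153 bases. In control mice the order of mean levels was Cyp2d26 (612 ± 79.7 CPM per kb), Cyp2d10 (448 ± 23.1), Cyp2f2 (349.9 ± 66.8), Cyp2j5 (128 ± 11.3), Cyp2d40 (107 ± 28), Cyp2d22 (100.2 ± 11.0), Cyp2d9 (29.7 ± 3.50) and Cyp2j6 (20.3 ± 2.20), each a mean ± SD of 6 mice in CPM per kb. Neighbours in that order whose ranges overlapped were Cyp2d10 and Cyp2f2, Cyp2j5 and Cyp2d40, and Cyp2d40 and Cyp2d22. In BIBB-515 mice Cyp2f2 headed the order at 697 ± 60.5 CPM per kb, ahead of Cyp2d26 at 649.8 ± 44.1, and these ranges overlapped although Cyp2f2 was the higher in 5 of 6 mice. Cyp2d10 (466 ± 23.7), Cyp2j5 (133 ± 6.40), Cyp2d22 (124 ± 6.04), Cyp2d40 (63.6 ± 3.44), Cyp2d9 (47.2 ± 15.1) and Cyp2j6 (18.0 ± 1.03 CPM per kb) followed. There, the ranges of Cyp2j5 and Cyp2d22, and of Cyp2d40 and Cyp2d9, overlapped. Cyp2f2 thus moved to the head of the order, and Cyp2d40 and Cyp2d22 changed places.

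Summed over the 8 genes, transcripts of these P450s came to 3366 ± 275 CPM in control mice (3125 to 3855 CPM) and 4147 ± 209 CPM in BIBB-515 mice (3848 to 4429.5 CPM; SD, n = 6 each). The rise of Cyp2f2 is the widest part of that difference in CPM. The 5 Cyp2d members summed to 2189 ± 161 CPM in control and 2328 ± 106 CPM in BIBB-515 mice, a difference of 0.09 on the log2 scale. The ranges overlapped (1987 to 2477 and 2159 to 2439 CPM), and the difference did not pass a two-sided exact permutation test of the diet labels (p = 0.0974). When the other 5 Cyp2d rows of the tables are added the difference is 0.01. The Cyp2j pair summed to 540.1 ± 35.1 and 551 ± 23.5 CPM, a difference of 0.03, also with overlap (exact permutation p = 0.561). Within the Cyp2d sum the makeup shifted at its lesser members. Cyp2d26 held 45.8 ± 2.71% of it in control and 45.9 ± 1.33% in BIBB-515 mice, and Cyp2d10 held 33.8 ± 0.878% and 33.0 ± 0.921%. Cyp2d22 went from 12.8 ± 1.77% to 14.8 ± 0.751%, Cyp2d40 from 5.40 ± 1.51% to 3.02 ± 0.204%, and Cyp2d9 from 2.25 ± 0.349% to 3.36 ± 1.11% (SD, n = 6 each).

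Ratios between genes of one family do not depend on how a library is scaled. For all 11 pairs within the Cyp2d and Cyp2j members, the log2 ratio in each mouse was compared between diets by exact permutation of the diet labels (two-sided, smallest possible p = 0.00216), adjusted over the 11 pairs. In 7 pairs the adjusted p was under 0.05. Cyp2d9 over Cyp2d40 went from -1.22 ± 0.38 to 0.10 ± 0.40 (SD, n = 6 each), a difference of 1.32 (exact p = 0.00216, adjusted 0.0238), and it is the only ratio without overlap between the diets. In reads, not scaled to length, Cyp2d40 had more than Cyp2d9 in all 6 control mice, and the order varied among BIBB-515 mice. Per kilobase, Cyp2d40 was the higher of the pair in 5 of 6 BIBB-515 mice. Against Cyp2d40, the ratios of Cyp2d10, Cyp2d22 and Cyp2d26 rose by 0.75, 1.01 and 0.79 (adjusted exact p = 0.0278 each). Cyp2d9 rose against Cyp2d10 by 0.57 (adjusted exact p = 0.0278) and against Cyp2d26 by 0.53 (adjusted exact p = 0.0374). Cyp2d10 fell against Cyp2d22 by 0.26 (adjusted exact p = 0.0278). The pair Cyp2d10 and Cyp2d26, the most abundant genes of the cluster, differed by -0.04 (adjusted exact p = 0.5). Values for Cyp2d9 over Cyp2d22 (0.31, adjusted exact p = 0.181), Cyp2d22 over Cyp2d26 (0.22, 0.116) and Cyp2j5 over Cyp2j6 (0.24, 0.107) missed the threshold. Without control mouse 2 the last 2 of these passed (0.28, adjusted exact p = 0.0357, and 0.30, adjusted exact p = 0.0159), and Cyp2d9 over Cyp2d26 did not (0.51, adjusted exact p = 0.0582).

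**Figure D3:**
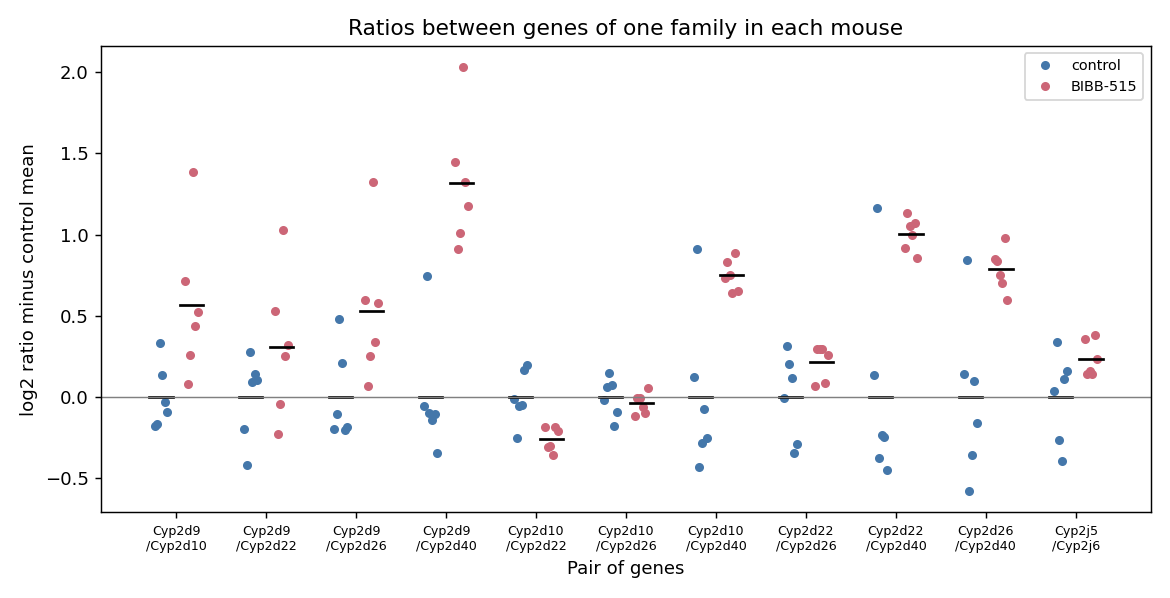
Log2 ratio of the counts of each pair of genes in each mouse, minus the mean of the 6 control mice, blue for control and red for BIBB-515, with black lines at group means. Cyp2d9 over Cyp2d40 differs by 1.32 with no overlap, and control mouse 2 is the high control point in each ratio over Cyp2d40.

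The cluster holds 10 Cyp2d rows over 423.7 kb, and the tables list 7 Cyp2j rows and 1 Cyp2f row. Beside the members this leaves 10 other rows, of which 3 were tested. Cyp2d37-ps, a pseudogene by its name, fell from 114 ± 26.8 to 67.5 ± 9.24 CPM (SD, n = 6 each), by -0.75 on the log2 scale (SE 0.14, edgeR FDR = 0.00283), with 5 of 6 BIBB-515 mice below every control mouse. Cyp2d13 was 287 ± 85.7 CPM in control and 203 ± 33.6 CPM in BIBB-515 mice, a difference of -0.50 (SE 0.17, edgeR FDR = 0.0586). Leaving out a mouse gave Cyp2d13 differences from -0.59 (without control mouse 2) to -0.33 (without control mouse 4, edgeR FDR = 0.110), and it passed without control mouse 2, control mouse 3 or BIBB-515 mouse 7 (edgeR FDR = 0.0264, 0.0382 and 0.0493). It also passed with DESeq2 (FDR = 0.0227) and with 1 surrogate variable (edgeR FDR = 0.0463), but under none of the other 7 settings (FDR of 0.0575 to 0.0935). These rows are consecutive with Cyp2d40 in the cluster, at 266 to 272 kb (Cyp2d13), 318 to 320 kb (Cyp2d37-ps) and 389 to 394 kb (Cyp2d40) from its low end, and all 3 were lower on BIBB-515. Cyp2d26, next after Cyp2d40 and 26.0 kb from it, was at 0.09. On the far side of that run, Cyp2d22, Cyp2d10 and Cyp2d9 stand at 0 to 9.73 kb, 32.3 to 36.7 kb and 81.8 to 86.3 kb. Genes just outside the cluster, Ndufa6 (0.07, edgeR FDR = 0.608), a subunit of respiratory complex I, and Tcf20 (-0.06, edgeR FDR = 0.726), a transcriptional coregulator, did not pass.

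**Figure D4:**
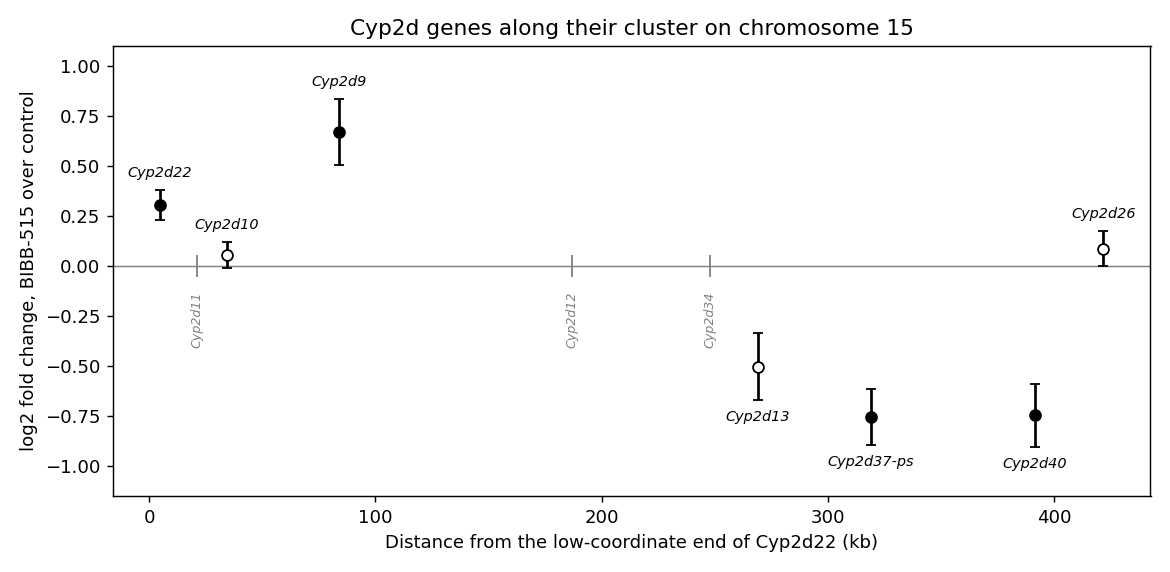
Log2 fold change of BIBB-515 over control (points, bars ± SE from edgeR, 6 mice each) of the Cyp2d rows against the middle of each gene in kb from the low-coordinate end of Cyp2d22, filled where the FDR was under 0.05. Grey ticks at 0 mark rows under the count filter, and the run Cyp2d13, Cyp2d37-ps and Cyp2d40 lies at -0.50, -0.75 and -0.75.

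The other 7 rows are near or at 0 in female liver. Cyp2d12 was 0.185 ± 0.0768 CPM in control and 0.424 ± 0.116 CPM in BIBB-515 mice, with 2 to 15 reads per library. Its groups did not overlap. It was under the filter, and with no filter on low counts it passed (1.18 on the log2 scale, SE 0.33, edgeR FDR = 0.0333 over 18278 genes). Cyp2d11 was 0.632 ± 0.170 and 0.473 ± 0.188 CPM, and Cyp2d34 and Cyp2j8 had at most 2 and 9 reads in a library. These 3 did not pass without the filter either (edgeR FDR = 0.429, 0.739 and 0.288). Cyp2j11, Cyp2j12 and Cyp2j13 had 0 reads in all 12 libraries. On chromosome 4, Cyp2j9 stands between Cyp2j6 and Cyp2j5 and was 11.8 ± 2.11 CPM in control and 11.0 ± 1.58 CPM in BIBB-515 mice (-0.11, SE 0.13, edgeR FDR = 0.622).

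Members were also compared across mice after removing the mean of each diet, over all 28 pairs and 12 mice. By permutation tests, 0 pairs had an adjusted p under 0.05 with Pearson's r or Spearman's rho, and 1 and 5 pairs had an unadjusted p under 0.05. Cyp2d10 with Cyp2d26 was the 1 pair under it by both (Pearson r = 0.83, permutation p = 0.00357, adjusted 0.10; Spearman rho = 0.78, permutation p = 0.00617, adjusted 0.112). By rho alone, Cyp2d9 with Cyp2d40 came next (rho = 0.63, permutation p = 0.00798, adjusted 0.112; r = 0.29, permutation p = 0.0720). For Cyp2d10 and Cyp2d26, r within diets was 0.92 in control and 0.75 in BIBB-515 mice, and 0.63 without the 2 mice farthest from the median of Cyp2d10.

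Genes whose deviations from the diet mean were most like those of each member were sought among 11168 genes, and since each is the highest of many, r is a description with no test. Cyp2d40 was most like Mrpl22, a mitochondrial ribosomal protein gene (r = 0.98 over 12 mice, and 0.83 without control mouse 2, where Mrpl22 was 11.5 CPM against 16.0 to 18.0 CPM in the other control mice). Cyp2d22 was most like Ciart, a repressor of the circadian clock (r = 0.95, and 0.89 without control mouse 2). Ciart was 34.1 CPM in control mouse 2, against 1.45 to 7.97 CPM in the other control mice and 3.57 to 16.9 CPM in BIBB-515 mice. Cyp2f2 was most like Fzr1, an activator of the anaphase-promoting complex (r = 0.96), and Cyp2d26 most like Stard10, a lipid transfer protein gene (r = 0.96). For Cyp2d9 it was the nuclear receptor coactivator gene Ncoa3 (r = 0.92), for Cyp2d10 the selenoprotein gene Sepw1 (r = 0.93) and for Cyp2j5 Wdr45b (r = 0.94). For Cyp2j6 it was Zfp219 (r = 0.91, and 0.84 without control mouse 2). Of these 8 genes, Fzr1 was the only one that changed with the diet (0.29 on the log2 scale, SE 0.07, edgeR FDR = 0.0112).

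Partner enzymes of the P450s include the proteins that supply their electrons. Among 5 measured donors and their helpers, 2 rose and 3 did not pass, where 7.18% of all tested genes were called higher. Por, the P450 oxidoreductase itself, went from 546 ± 144 to 946 ± 72.1 CPM (0.79, SE 0.14, edgeR FDR = 0.00265). Pgrmc1, a haem protein that binds P450s, went from 709 ± 71.3 to 1178 ± 89.0 CPM (0.73, SE 0.08, edgeR FDR = 5.09e-05; SD, n = 6 each). Downstream of the Cyp2j epoxygenases, Ephx2, the soluble hydrolase of fatty acid epoxides, was 522 ± 122 CPM in control and 571 ± 57.2 CPM in BIBB-515 mice (0.13, SE 0.14, edgeR FDR = 0.591). Ephx1, the microsomal hydrolase of xenobiotic epoxides, rose from 151 ± 47.2 to 459 ± 56.4 CPM (1.61, SE 0.18, edgeR FDR = 4.20e-05).

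A list of Cyp2b, Cyp2c and Cyp3a genes, drawn up for induction through CAR and PXR, moved over a wider range than the 8 constitutive genes. Of 11 tested, 7 rose and 0 fell, with a median log2 fold change of 1.16, where 7.18% of all tested genes were called higher and 6.48% lower. The list includes Cyp2b9 (0.02, edgeR FDR = 0.948) and Cyp2b13 (-0.65, edgeR FDR = 0.0513), which also stand in the female-biased list below. Its other Cyp2b gene, Cyp2b10, rose from 27.2 ± 23.3 to 430 ± 89.5 CPM (3.98, SE 0.47, edgeR FDR = 7.66e-05; SD, n = 6 each). Cyp2c55 rose by 5.98, Cyp3a11 by 3.24, Cyp2c29 by 1.67 and Cyp3a25 by 1.6 on the log2 scale (edgeR FDR = 1.59e-09, 2.31e-10, 4.85e-06 and 8.19e-08). All 11 summed to 3395 to 4962 CPM in control and 18215 to 24863 CPM in BIBB-515 mice. In control mice the sum of the 8 constitutive genes, 3125 to 3855 CPM, overlapped that range. In BIBB-515 mice it was 3848 to 4429.5 CPM, below the range of the induced list.

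Position in the liver lobule was examined because Cyp2f2 is a periportal gene. Over all tested genes, 7.18% were called higher and 6.48% lower. Of 14 other periportal genes tested, 4 rose and 1 fell, with a median of 0.03. Hsd17b6 rose by 0.82, Etnppl by 0.60 and Hal by 0.55, whereas Pck1, the control enzyme of gluconeogenesis, fell by 0.56 (edgeR FDR = 0.0220, 0.0383, 0.00450 and 0.0188). Of 16 genes of pericentral hepatocytes, 2 rose and 5 fell, with a median of 0.02. Cyp1a2 rose by 0.73 and Rnf43 by 0.54, and Rgn and Gulo fell by 0.47 and 0.45 (edgeR FDR = 0.000324, 0.00954, 0.000631 and 0.00148). Of the other called genes, Hsd17b13 in the periportal list rose by 0.28 (edgeR FDR = 0.0413). Lgr5, Slc1a2 and Glul in the pericentral list fell by 0.51, 0.34 and 0.29 (edgeR FDR = 0.0322, 0.0265 and 0.0272). Called genes thus more often rose in the periportal list and more often fell in the pericentral list. Whether position in the lobule has a part in this was not tested.

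Sex-biased liver genes were listed because Cyp2d9 is more abundant in males. Of 10 male-biased genes tested, 3 rose and 3 fell, with a median of 0.38, where 7.18% of all tested genes were called higher and 6.48% lower. Mup20 and Gstp1 were at 0.91 and 0.77, and Slco1a1 and Nudt7 at -1.67 and -0.70 (edgeR FDR = 0.00294, 0.000246, 0.000971 and 1.76e-05). Of 17 female-biased genes, 3 rose and 4 fell, with a median of -0.65. Prom1 rose by 1.13, and A1bg, Cux2 and Cyp17a1 fell (-3.37, -2.08 and -1.27) (edgeR FDR = 0.00595, 0.00669, 0.00897 and 0.00185). A1bg varied widely, at 245 ± 305 CPM in control and 23.7 ± 8.02 CPM in BIBB-515 mice (SD, n = 6 each), and its groups overlapped. Of 18 transcription factors of hepatocytes, xenobiotic receptors included, 2 passed, near the 13.7% of all tested genes. In this list 1 rose (Cebpb, 0.60, edgeR FDR = 0.0180) and 1 fell (Foxa3, -0.68, edgeR FDR = 0.0150). The CAR gene Nr1i3 was at 0.02 (edgeR FDR = 0.929) and the PXR gene Nr1i2 at 0.29 (edgeR FDR = 0.0658).

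**Figure D5:**
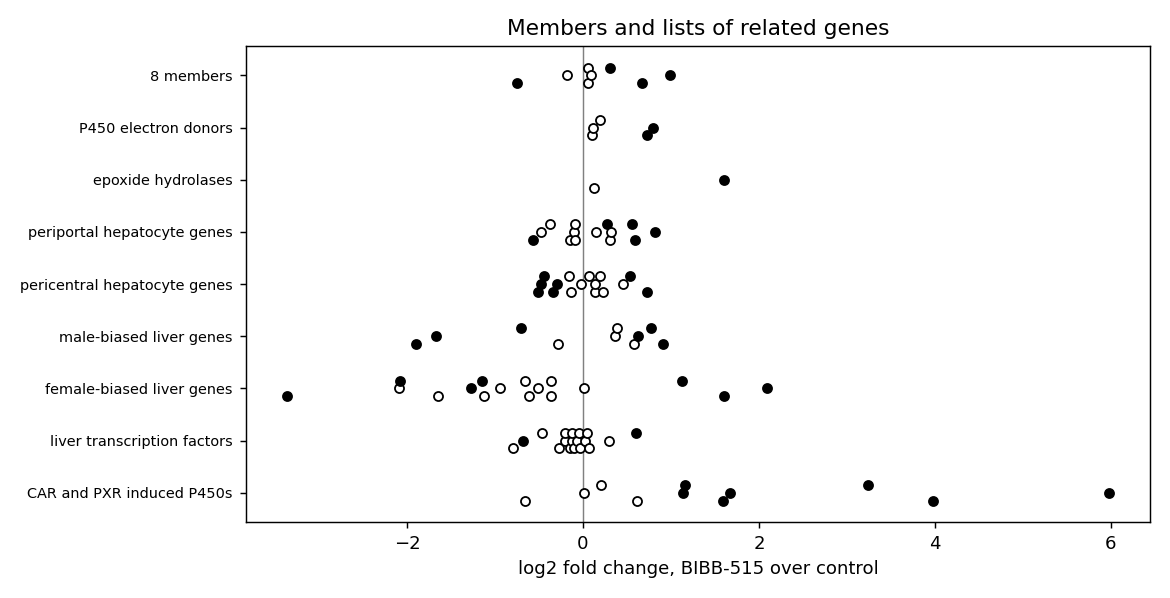
Log2 fold change of BIBB-515 over control for each tested gene of the 8 members and of 8 lists of related genes (1 point per gene, filled where the edgeR FDR was under 0.05, small vertical offsets only to separate points). The members lie between -0.75 and 0.99, and the CAR and PXR induced P450s reach 5.98.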

How the data were processed

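Per the file headers, the authors deposited whole-number counts per gene for each liver, made with featureCounts (Subread 1.6.3) on UCSC mm10 genes, unstranded, with multi-mapped reads and reads on more than 1 gene left out. Their processing notes name STAR 2.5.3a. The authors' counts per exon, and counts from primary alignments, served the exon values and an alternative, and counts per transcript were not used here.

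A gene was kept at 1 CPM or more in 2 or more of the 12 mice. Counts were TMM-normalized and tested with edgeR 4.0.16 (R 4.3.3) in a model of diet alone. SE is the log2 fold change over the root of F. Depth per library and its range open the results, and p-values for the diets set their difference against the spread between these mice. The labels give no batch. Mice shared cages, the labels give no cage, and its part in the results was not tested.

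Members and lists were chosen with earlier results of these data known. Besides the members, genes are named as other rows of the families, immediate neighbours, the gene most alike (average log2 CPM of at least 1), and from each list up to 4 of lowest p that passed. Other named list genes, and the look at control mouse 2, were chosen after values were seen. Annotation is GENCODE M21 and promoters are RefSeq, both on GRCm38, the build of mm10. Alternatives were other scalings and filters, primary alignments, limma-voom (limma 3.58.1), DESeq2 1.42.0, 1 surrogate variable (sva 3.50.0) and leaving out each mouse.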

Additional observations from a re-analysis of the deposited data

Results flagged for a closer look

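Cyp2d22 in BIBB-515 mouse 11 lay far from the other mice of its diet. Its level was 375 CPM and the next highest was 345 CPM, a gap of 0.641 of the range of the 6 mice, above the 95% critical value of Dixon's test. Of 28 groups examined this was the only 1 so far apart, where chance gives about 1.4.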

How the results depend on the processing

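The count of members past an FDR of 0.05 was 4 under all 9 other settings and 4 to 5 when a mouse was left out, the fifth being Cyp2j6 without control mouse 2. All genes past the threshold numbered 1489 to 2407 against 1705, and 1199 to 1865 with a mouse left out. With library size alone the calls split into 1496 higher and 490 lower, against 896 and 809, and the median of all genes moved from -0.01 to 0.04; no member changed direction. The Cyp2d sum differed by 0.145 with library size alone, where it passed its exact test, and by 0.0636 to 0.127 with a mouse left out, past the test only without control mouse 5 (0.127). For the Cyp2j sum, leaving out a mouse gave -0.00478 to 0.0520, below 0 without control mouse 4. The ratio of Cyp2d9 to Cyp2d26 lost its call in 7 of 12 such fits (0.37 to 0.62, adjusted exact p up to 0.0850), and 6 to 8 of 11 ratios passed. The cause of these changes was not tested. No paired analysis was possible because the diets share only the replicate number 6. With no filter on low counts, 18278 genes were tested, among them 4 of the family rows under the filter.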
